A study of Mus musculus with 6 samples.

Results

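Chemokines are small secreted proteins that guide leukocytes through receptors on the leukocyte surface, and the mixture that tumour cells release helps to set which leukocytes enter a tumour. Cxcl9 and Cxcl10 bind Cxcr3 on activated T cells and NK cells and are textbook targets of IFNγ, the cytokine made by those same cells. Neutrophils are drawn mainly by chemokines that bind Cxcr2, such as Cxcl1 and Cxcl5, and monocytes by chemokines that bind Ccr2, such as Ccl2 and Ccl7. In the pathway as it is known, IFNγ acts on promoters through GAS sites and switches on Irf1, a transcription factor that binds interferon response sites. NF-κB acts beside these factors at several chemokine promoters.

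The signals of 10 chemokine genes were followed in TC-1/A9 tumour cells, and the genes were taken by their symbols from the annotation of the array's probes. They were placed in 4 classes. The T cell attracting class held Cxcl9, Cxcl10, Cx3cl1, Ccl5 and Cxcl16, the neutrophil attracting class Cxcl1 and Cxcl5, the monocyte attracting class Ccl2 and Ccl7, and Cxcl12 stood alone as a homeostatic chemokine. Of the 10 genes, 7 had a named probe that passed the filter on detection, and these 7 had 8 probes among the 13545 probes tested, which covered 7807 named genes. No probe was named here for Cxcl1, Cxcl5 and Cxcl16, so that no value can be given for them and the neutrophil attracting class could not be compared with the others. Names were at hand only for probes that passed the filter, so a gene without a named probe may be one that was not detected.

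TC-1/A9 cells lack normal MHC class I on their surface and descend from TC-1 cells grown as tumours in mice that had been immunized. TC-1 itself comes from C57BL/6 lung cells that were transformed with HPV16 E6 and E7 and activated Ha-ras, so every sample carries these oncogenes and all results describe a single transformed line in culture, with no leukocytes added. RNA of cells kept with IFNγ for 24 h, at 50 U/ml by the sample labels, and RNA of untreated cells was measured on bead arrays (Illumina Mouse WG6), and each group had 3 of them. The study's methods state a different amount of IFNγ for these arrays, so the dose is not settled.

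Between 12067 and 12423 probes were detected per IFNγ array and between 11504 and 12404 per untreated array, where detected means a detection p of 0.01 or less against the negative controls of the array. IFNγ replicate 3 had the lowest mean correlation with its own group (r = 0.990 over all probes, against 0.992 and 0.993 for the other IFNγ arrays and 0.995 for the untreated arrays). For the chemokines placed in classes, values that rest on that array are given with and without it. Names were at hand only for probes that passed the filter on detection, so that a named marker is detected is in part given in advance. Of the marker lists, 3 of 8 mesenchymal markers were named (Vim, Dcn and Pdgfra), and all 3 were detected on every array. Their summed signal was 8654.5 to 13093.9 in IFNγ arrays and 8364.8 to 10958.9 in untreated arrays. It came mostly from Vim, with a mean log2 signal of 13.20 in untreated cells, where Dcn had 7.03 and Pdgfra 6.71. No epithelial, T and NK cell or neutrophil marker had a named probe, so an epithelial label could not be checked. Of 9 macrophage and monocyte markers, Csf1r, Cd68 and Cd14 were named, and their summed signal was 386.3 to 464.4 in IFNγ arrays and 399.9 to 427.6 in untreated arrays. Cd14 was detected on all 6 arrays, Cd68 on 3 of 3 IFNγ arrays and 2 of 3 untreated arrays, and Csf1r on 0 of 3 IFNγ arrays and 2 of 3 untreated arrays. The endothelial marker Kdr, the only named marker of 5, had 64.1 to 76.8 in IFNγ arrays and 66.1 to 90.1 in untreated arrays. None of these 7 markers passed the test in limma, and none had an unadjusted p under 0.05.

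Signals are given as quantile-normalized log2 bead intensity, with the SD over 3 arrays, and changes as log2 fold changes of IFNγ over untreated cells from limma, with Benjamini-Hochberg adjustment over all tested probes and an adjusted p under 0.01 as threshold. Levels of different probes cannot be set against each other, because probes differ in brightness. The arrays measured RNA of whole cultures, so more cells that make a transcript and more transcript per cell cannot be told apart. At this threshold 3 of the 7 measured chemokines rose after IFNγ, namely Cxcl9, Cxcl10 and Cx3cl1, against a background of 1.33% of all tested genes (104 of 7807). None of the 7 fell at this threshold or at an unadjusted p under 0.05. At the latter level 5 of the 7 were higher, beside 4.42% of all tested genes higher and 4.07% lower. All 3 that rose belong to the T cell attracting class, where 4 of 5 members were measured and the median log2 fold change was 1.02, or 0.73 with Cxcl9, which untreated arrays did not detect, taken at its lower bound. The median was 0.55 for the monocyte attracting pair, in which no member passed the threshold, and -0.12 for Cxcl12. Over the 7 measured chemokines the median was 0.61, beside -0.02 over all named genes tested. Cxcl9, Cxcl10 and Cx3cl1 are also on the list of responding genes that the study drew from these same samples, so their direction is no independent evidence.

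**Figure D1:**
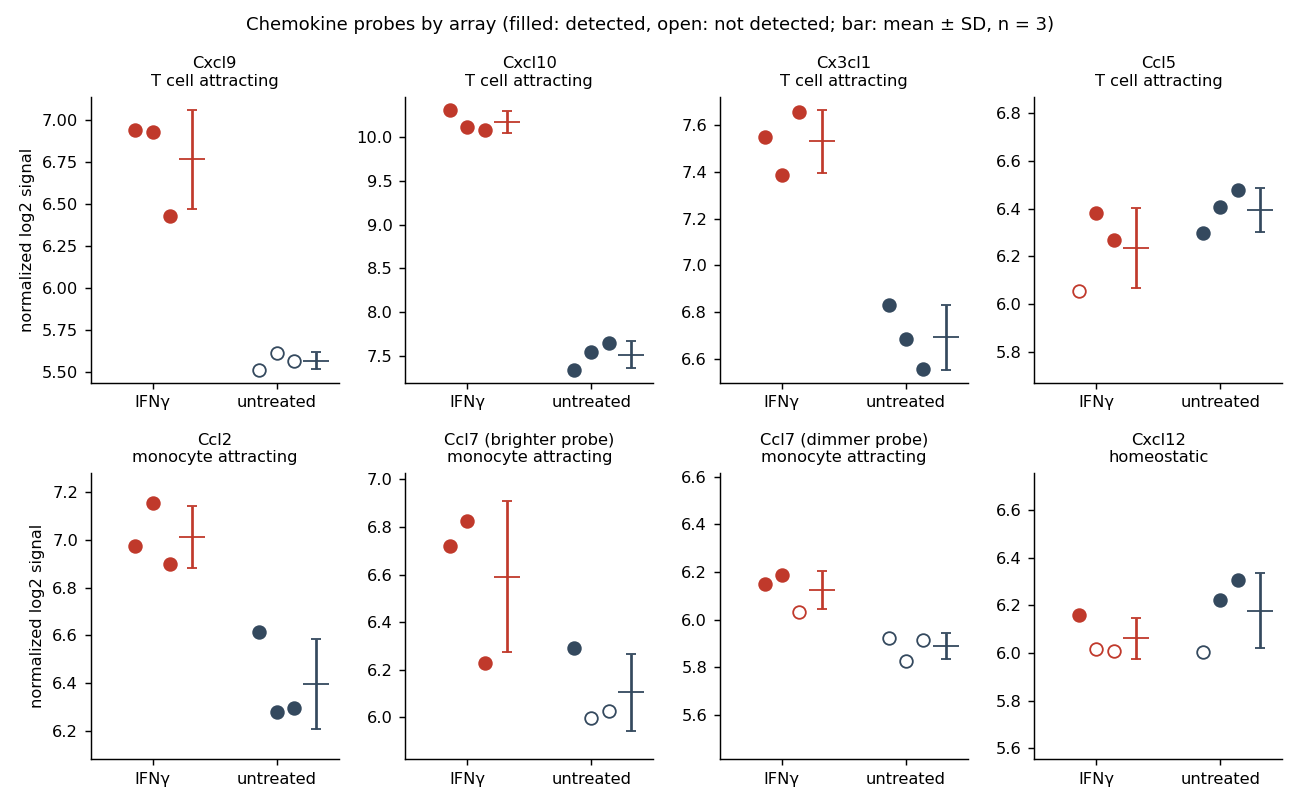
Quantile-normalized log2 signal (y axis, with its own range in each panel) of the 8 chemokine probes on the 3 IFNγ arrays (red, left) and the 3 untreated arrays (dark blue, right), with filled points for detected and open points for undetected signals and bars for the mean ± SD. The groups lie apart for Cxcl9, Cxcl10, Cx3cl1, Ccl2 and the dimmer Ccl7 probe, and overlap for Ccl5, Cxcl12 and the brighter Ccl7 probe.

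The largest change among the 7 measured chemokines was that of Cxcl10, also known as IP-10, the ligand of Cxcr3 named for its induction by interferon. Its log2 signal (probe ILMN_3142803) was 10.31, 10.11 and 10.08 in IFNγ replicates 1 to 3, against 7.35, 7.55 and 7.65 in untreated replicates 1 to 3. Before normalization the intensities were 1511, 919 and 944 in IFNγ arrays and 212, 180 and 174 in untreated arrays. The lowest IFNγ array thus lay well above the highest untreated array on both scales, and the probe was detected on all 6 arrays, so that untreated TC-1/A9 cells already gave a Cxcl10 signal. The means were 10.17 ± 0.13 in IFNγ cells and 7.51 ± 0.15 in untreated cells (SD, n = 3 each). The log2 fold change was 2.65 (SE 0.12, 95% interval 2.40 to 2.91, limma adjusted p = 5.60e-09), a 6.28-fold rise, and it was rank 10 among the 7807 genes by signed change.

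Cxcl9, or MIG, is the second Cxcr3 ligand measured here. Its log2 signal (probe ILMN_1215862) was 6.94, 6.93 and 6.43 in IFNγ replicates 1 to 3, against 5.52, 5.62 and 5.57 in untreated replicates 1 to 3. IFNγ replicate 3 was the lowest of the IFNγ arrays, but still lay above every untreated array. The probe was detected on all 3 IFNγ arrays and on none of the untreated arrays, where its detection p was 0.715, 0.444 and 0.605. It thus entered the test through the IFNγ arrays alone, and its signal in untreated cells could not be told from background, so the change is a lower bound. Against the lowest detected signal of each untreated array, Cxcl9 was at least 1.54-fold higher in IFNγ cells. The measured means were 6.77 ± 0.29 in IFNγ cells and 5.57 ± 0.05 in untreated cells (SD, n = 3 each), with a fitted log2 difference of 1.20 (SE 0.14, 95% interval 0.90 to 1.49, limma adjusted p = 1.40e-04).

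Cx3cl1, or fractalkine, is made as a membrane protein whose stalk holds the chemokine above the cell surface, and it is shed by proteases. Its receptor, Cx3cr1, is carried by effector T cells, NK cells and monocytes, so its place in the T cell attracting class is not exclusive. The log2 signal (probe ILMN_2627041) was 7.55, 7.39 and 7.66 in IFNγ replicates 1 to 3, against 6.83, 6.69 and 6.56 in untreated replicates 1 to 3. All 6 arrays detected it and the groups did not overlap. Before normalization the groups lay barely apart, with a lowest IFNγ intensity of 145 and a highest untreated intensity of 142. The means were 7.53 ± 0.14 in IFNγ cells and 6.69 ± 0.14 in untreated cells (SD, n = 3 each). The log2 fold change was 0.84 (SE 0.12, 95% interval 0.59 to 1.09, limma adjusted p = 9.06e-04), or 1.79-fold. Without untreated replicate 3, the untreated array with the lowest Cx3cl1 signal, the adjusted p was 0.0158, above the threshold, with a log2 fold change of 0.78, and it was 0.0208 when arrays were centred on their 75th percentile.

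Ccl5, or RANTES, draws T cells and monocytes, and is the member of its class whose signal was not higher after IFNγ. Its log2 signal (probe ILMN_1231814) was 6.05, 6.38 and 6.27 in IFNγ replicates 1 to 3, against 6.30, 6.41 and 6.48 in untreated replicates 1 to 3. The groups overlapped, and detection was near its limit, with the probe detected on 2 of 3 IFNγ arrays and on 3 of 3 untreated arrays. The log2 fold change of -0.16 (SE 0.12, 95% interval -0.41 to 0.09, limma adjusted p = 0.762) did not pass the test, and the interval reaches no higher than 0.09. Raw intensities were 69.5, 75.03 and 75.4 in IFNγ replicates 1 to 3, against 92.9, 83.9 and 80.3 in untreated replicates 1 to 3, and did not overlap before normalization.

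The RefSeq promoter windows of the 3 genes that rose and of Cxcl12, measured but not called, are printed to show which interferon and NF-κB motifs lie next to their start sites. Such windows were given for 5 of the 10 genes (Cxcl9, Cxcl10, Cx3cl1, Cxcl1 and Cxcl12). Each runs from 250 bases before to 50 bases after the annotated start in the build GRCm38.p6, is written 5′ to 3′ on the strand of the gene, and has motif matches in capitals. The Cxcl9 window is chr5:92328030-92328329 on the minus strand, the Cxcl10 window chr5:92348840-92349139 on the minus strand, the Cx3cl1 window chr8:94771930-94772229 on the plus strand and the Cxcl12 window chr6:117168285-117168584 on the plus strand.
Cxcl9: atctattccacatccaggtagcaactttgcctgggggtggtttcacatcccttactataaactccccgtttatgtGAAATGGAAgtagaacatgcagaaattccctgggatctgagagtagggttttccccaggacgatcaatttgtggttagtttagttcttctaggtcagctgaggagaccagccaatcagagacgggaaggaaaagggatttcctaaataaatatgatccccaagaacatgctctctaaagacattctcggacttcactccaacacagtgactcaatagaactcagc
Cxcl10: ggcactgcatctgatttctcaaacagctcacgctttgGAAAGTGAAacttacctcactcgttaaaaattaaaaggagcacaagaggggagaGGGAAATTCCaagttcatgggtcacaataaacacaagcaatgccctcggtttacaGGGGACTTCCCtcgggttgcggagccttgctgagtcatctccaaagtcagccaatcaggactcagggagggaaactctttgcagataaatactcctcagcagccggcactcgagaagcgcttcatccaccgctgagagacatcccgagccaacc
Cx3cl1: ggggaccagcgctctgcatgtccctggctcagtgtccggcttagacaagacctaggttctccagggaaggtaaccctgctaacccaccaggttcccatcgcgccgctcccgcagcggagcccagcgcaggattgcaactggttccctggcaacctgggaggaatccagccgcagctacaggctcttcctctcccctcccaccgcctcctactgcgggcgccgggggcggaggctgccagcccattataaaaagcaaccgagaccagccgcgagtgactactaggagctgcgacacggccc
Cxcl12: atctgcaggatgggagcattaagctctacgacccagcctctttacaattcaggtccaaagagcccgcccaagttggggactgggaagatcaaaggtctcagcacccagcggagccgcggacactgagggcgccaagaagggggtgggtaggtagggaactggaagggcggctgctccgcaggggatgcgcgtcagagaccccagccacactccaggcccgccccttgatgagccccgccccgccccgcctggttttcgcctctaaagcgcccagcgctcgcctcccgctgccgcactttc

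The motifs were searched on both strands. They were the GAS motif TTCNNNGAA, the interferon response core GAAANNGAA, which IRF proteins bind, and the κB motif of NF-κB. Cxcl9 and Cxcl10 each held 1 match of the interferon response core on the gene strand, from -175 to -167 and from -213 to -205 bases of the start. Over all 32851 mouse promoter windows of this length, 8.6% held that core. Cxcl10 also held κB matches in 2 separate stretches, from -159 to -150 and from -104 to -94. The second stretch is 3 overlapping matches on both strands, and 8.5% of all windows held a κB match. None of the 4 printed windows held a GAS match, which 8.3% of all windows did, and the windows of Cx3cl1 and Cxcl12 held none of the 3 motifs. The Cxcl1 window, which is not printed, held 2 overlapping κB matches on opposite strands, from -71 to -62 and from -70 to -61. It held neither of the other motifs. Matches are letters in a short window and say nothing of binding in these cells.

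**Figure D2:**
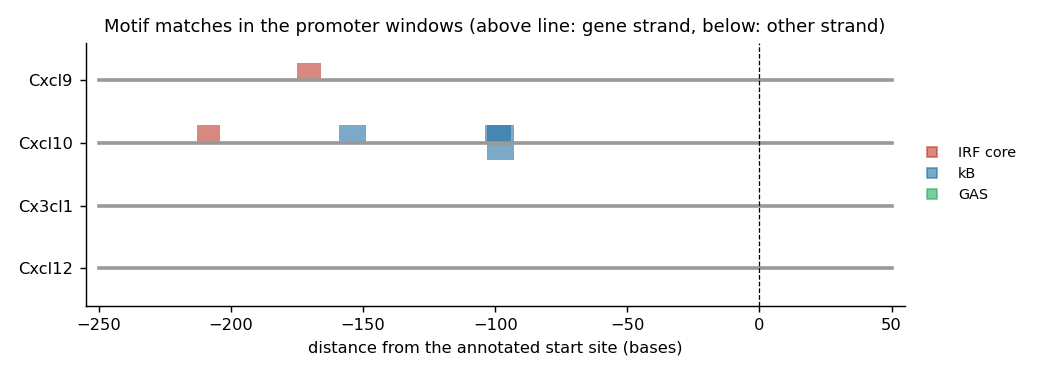
Motif matches in the promoter windows of Cxcl9, Cxcl10, Cx3cl1 and Cxcl12, placed by distance in bases from the annotated start site (dashed line), with matches on the gene strand above the line and on the other strand below it. Among these 4 windows, the interferon response core (red) is found once in Cxcl9 and once in Cxcl10, κB matches (blue) only in Cxcl10, and GAS matches (green) in none.

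The monocyte attracting chemokines Ccl2 and Ccl7 lie side by side on chromosome 11, with Ccl11 next to them. Ccl2, or MCP-1, the main Ccr2 ligand, had a log2 signal (probe ILMN_1245710) of 6.98, 7.15 and 6.90 in IFNγ replicates 1 to 3, against 6.61, 6.28 and 6.30 in untreated replicates 1 to 3. All 6 arrays detected it, and the IFNγ arrays all lay above the untreated arrays after normalization. Untreated replicates 2 and 3 lay near background, each with a detection p of 0.0043 against the negative controls. Before normalization the groups overlapped, since the lowest IFNγ intensity was 115 and the highest untreated intensity 119. The log2 fold change was 0.61 (SE 0.12, 95% interval 0.35 to 0.88, limma adjusted p = 0.0199), which did not pass the threshold of 0.01. It passes at an adjusted p under 0.05, a level at which 1.60% of all tested genes were called higher and 4 of the 7 measured chemokines. Groups lying apart in this direction were found for 4 of the 7 chemokines, the 3 that rose and Ccl2, and for 6.44% of all tested genes.

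Ccl7, or MCP-3, also binds Ccr2 and had a pair of probes. The log2 signal of the brighter probe (ILMN_2771176) was 6.72, 6.82 and 6.23 in IFNγ replicates 1 to 3, against 6.29, 6.00 and 6.03 in untreated replicates 1 to 3. IFNγ replicate 3 fell within the untreated range, so the groups overlapped. The probe was detected on 3 of 3 IFNγ arrays and on 1 of 3 untreated arrays, and its log2 fold change was 0.49 (SE 0.15, 95% interval 0.16 to 0.81, limma adjusted p = 0.262). The dimmer probe (ILMN_2835117) gave 6.15, 6.19 and 6.03 in IFNγ arrays and 5.92, 5.83 and 5.92 in untreated arrays, and was detected on 2 of 3 IFNγ arrays and on 0 of 3 untreated arrays. Its groups lay apart, yet its signals were so close to background that no fold can be given, and its fitted log2 difference was 0.23 (SE 0.10, limma adjusted p = 0.613). Without IFNγ replicate 3, both genes passed the threshold, with log2 fold changes of 0.67 for Ccl2 (limma adjusted p = 0.0020) and 0.67 for the brighter Ccl7 probe (limma adjusted p = 0.0012), and 5 of the 7 chemokines were then higher, beside 1.58% of all tested genes in that fit. In the same fit the log2 fold changes were 1.38 for Cxcl9, 2.72 for Cxcl10 and 0.78 for Cx3cl1, all still past the threshold, while Ccl5 (-0.18) and Cxcl12 (-0.09) still missed it. Whether Ccl2 and Ccl7 passed thus depended in part on that array, which was also the lowest IFNγ array for Ccl2. With all 6 arrays, Ccl2 also passed under trended and robust eBayes (limma adjusted p = 0.0091), so its call depended on the variance model too. Ccl2 and Ccl7 both passed with array weights, at log2 fold changes of 0.67 and 0.65, in a fit that called 2.16% of all tested genes higher.

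Cxcl12, or SDF-1, the ligand of Cxcr4, is made by stromal cells in many tissues without inflammation. Its log2 signal (probe ILMN_3158250) was 6.16, 6.01 and 6.01 in IFNγ replicates 1 to 3, against 6.00, 6.22 and 6.31 in untreated replicates 1 to 3. The groups overlapped, and the probe was detected on 1 of 3 IFNγ arrays and on 2 of 3 untreated arrays. The log2 fold change was -0.12 (SE 0.11, 95% interval -0.36 to 0.13, limma adjusted p = 0.822). A change inside this interval was not detectable with 3 arrays a group so near to background.

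**Figure D3:**
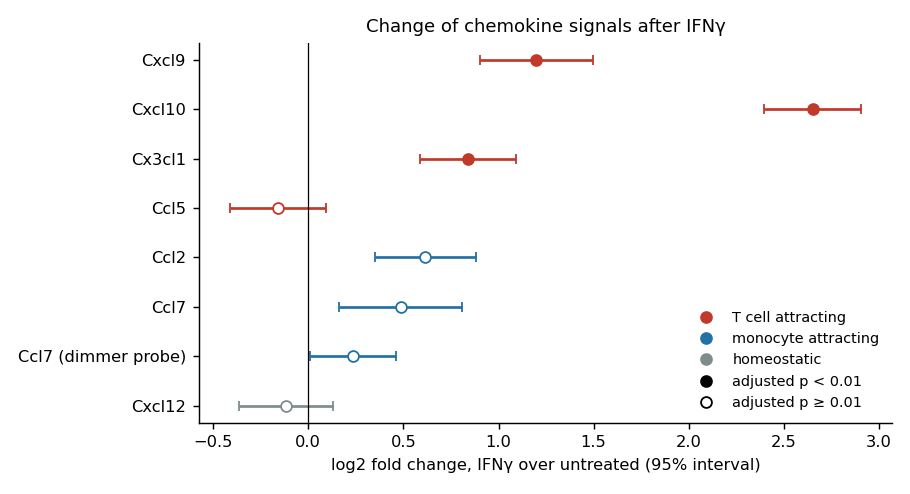
Log2 fold change of each chemokine probe, IFNγ over untreated cells, with its 95% interval from limma, coloured by class and filled where the adjusted p was under 0.01. The interval of Cxcl10 at 2.65 overlaps no other, Cxcl9 at a fitted 1.20 (lower bound 0.63, as untreated arrays did not detect it) and Cx3cl1 at 0.84 also passed the threshold and have no settled order, Ccl2 and both Ccl7 probes lie above 0 without passing the threshold, and the intervals of Ccl5 and Cxcl12 cross 0.

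To set 1 T cell attracting against 1 monocyte attracting chemokine within each array, the log2 signal of Ccl2 was subtracted from that of Cxcl10. The offset between the probes has no meaning, and only a fixed factor of probe brightness drops out of its change. No background correction was applied in this fit, and Ccl2 lay nearer to background than Cxcl10. With neqc background correction the log2 fold changes were 0.93 for Ccl2 and 2.91 for Cxcl10. The difference was 3.33, 2.96 and 3.18 in IFNγ replicates 1 to 3, against 0.73, 1.27 and 1.35 in untreated replicates 1 to 3. The groups did not overlap, and Cxcl10 thus gained 2.04 more on the log2 scale than Ccl2. In an exact permutation test over arrays, two-sided, p was 0.10, the smallest that 3 arrays against 3 allow, so this design cannot reach 0.05. It was the only pair that could be computed of 3 planned, as the other pairs needed Cxcl1. The pair holds the member of the T cell attracting class with the largest change and does not describe that class, in which Cx3cl1 changed by 0.84 and Ccl5 had -0.16, beside 0.61 for Ccl2.

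Of 31 other chemokines, Ccl9, Ccl11, Ccl25 and Ccl27a had named probes, and none passed the test. Ccl27a, a skin chemokine that binds Ccr10, had the lowest fold change, with signals of 7.49 ± 0.26 in IFNγ cells and 7.85 ± 0.07 in untreated cells (SD, n = 3 each). Its log2 fold change was -0.36 (limma adjusted p = 0.460). It was the single gene of these 4 with an unadjusted p under 0.05, beside 4.07% of all tested genes lower at that level. IFNγ replicate 3 had a Ccl27a signal of 7.19, against 7.64 in each of IFNγ replicates 1 and 2. No fit without that array is given for this gene. Ccl11, the eosinophil chemokine that lies next to Ccl7, had a log2 fold change of 0.03 (SE 0.11, limma adjusted p = 0.964). No probe was named for any of 24 chemokine receptors, which may have had only undetected probes.

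Among 11 genes for shedding and cleavage of chemokines, 5 were measured, and none passed the test or had an unadjusted p under 0.05 in limma. Adam17, a sheddase of membrane-bound Cx3cl1, had a log2 fold change of -0.17 (SE 0.11). The other values were 0.02 for Rhbdf1, a partner protein of Adam17, -0.05 for Mmp2, a metalloprotease that clips human CCL7, 0.06 for Mmp14 and -0.11 for Ctsk. None of these 4 was as far from 0 as that of Adam17.

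Of 18 genes for transcription and mRNA stability of chemokines, 14 were measured, 1 rose and none fell, with 4 higher and 0 lower at an unadjusted p under 0.05, beside 4.42% higher and 4.07% lower of all tested genes. The gene that rose was Irf1, with 12.75 ± 0.22 in IFNγ cells and 9.95 ± 0.13 in untreated cells (SD, n = 3 each). Its log2 fold change was 2.80 (SE 0.13, limma adjusted p = 6.44e-09). Zfp36, or tristetraprolin, which binds AU-rich sequences and speeds the decay of chemokine mRNAs, had 9.14 ± 0.09 in IFNγ cells and 8.58 ± 0.09 in untreated cells (SD, n = 3 each). Its log2 fold change of 0.55 did not pass the threshold (limma adjusted p = 0.0151). The NF-κB subunits Rela, Relb and Nfkb2 had log2 fold changes of -0.07, -0.19 and 0.05, none of which passed the test.

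For each chemokine that rose, the 3 genes with the most similar profile were named, by the root mean square difference of log2 signals over the 6 arrays after centring each gene on its mean. For Cxcl10 these were Tap2 (0.15), Psmb10 (0.17) and Tap1 (0.20), with fitted log2 fold changes of 2.60, 2.43 and 2.34. Untreated arrays detected Tap2 on 1 of 3 and Tap1 on 0 of 3, so these profiles rest in part on background signal, and Tap1 was at least 3.74-fold higher in IFNγ cells. For Cxcl9 they were H2-Q5 (0.07), Ube2l6 (0.12) and H2-M3 (0.12), with log2 fold changes of 1.22, 1.25 and 1.38, and the likeness uses Cxcl9 signals that untreated arrays did not detect. For Cx3cl1 they were Rmdn3 (0.04), Crem (0.06) and Amigo2 (0.09), with log2 fold changes of 0.80, 0.84 and 0.72, and Crem was detected on 1 of 3 untreated arrays. These likenesses are descriptions, over 6 arrays of 2 groups that all genes share.

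In the RefSeq gene order of GRCm38.p6, Cxcl9 and Cxcl10 lie near each other on chromosome 5, parted by Art3, for which no tested probe was named. The measured genes beside them did not pass the test, with log2 fold changes of -0.07 for Sdad1, -0.10 for Nup54 and -0.06 for Scarb2. Cx3cl1 lies on chromosome 8 between Ccl22 and Ccl17, for which no tested probe was named, and the nearest measured gene, Ciapin1, had a log2 fold change of -0.09. Over the 3 protein-coding genes on each side of the 7 measured chemokines, 13 genes other than these chemokines were tested. None passed the test or had an unadjusted p under 0.05 in limma, and their log2 fold changes ran from -0.18 to 0.23.

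Under other ways of processing the arrays, Cxcl10 passed the threshold in all 17 alternatives that kept an adjusted p under 0.01, with log2 fold changes of 2.55 to 2.91, and Cxcl9 in all 16 in which it could be tested, with fitted values of 1.02 to 1.92. Cx3cl1 passed in 15 of 17, with 0.77 to 1.12. Ccl2 passed in 3 of 17 and Ccl7 in 2 of 16, both with positive values throughout, while Ccl5 and Cxcl12 passed in none and had negative values throughout.

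**Figure D4:**
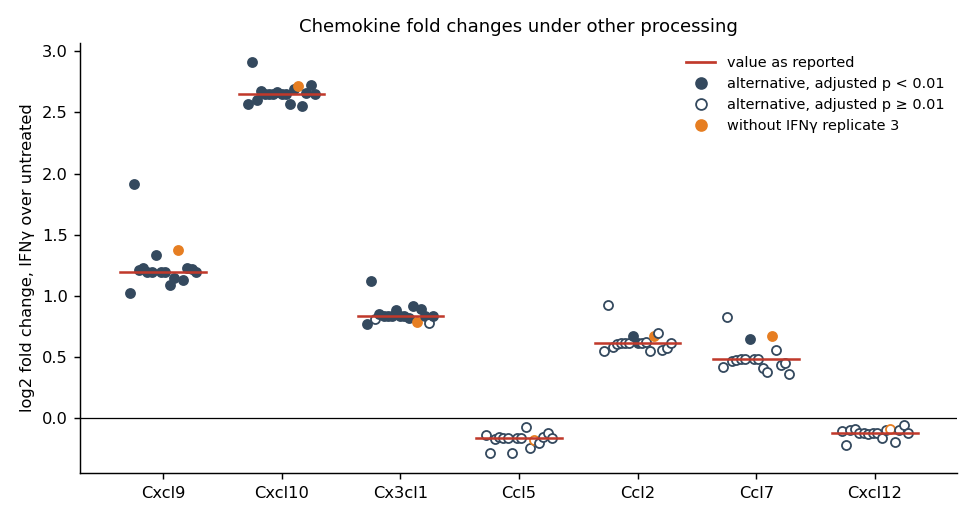
Log2 fold change of each measured chemokine, IFNγ over untreated cells, as reported (red line) and under each alternative (points), filled where the adjusted p was under 0.01 and orange where IFNγ replicate 3 was left out. Points of Cxcl9, Cxcl10 and Cx3cl1 lie at 0.77 or above, those of Ccl2 and Ccl7 lie between 0.36 and 0.93, and those of Ccl5 and Cxcl12 lie below 0.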

How the data were processed

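RNA of 3 IFNγ-treated and 3 untreated TC-1/A9 cultures was analysed, and the study's methods call these biological triplicates. Scanning and export were done in BeadStudio. The authors deposited, for 45281 probes, the linear average bead intensity before any normalization. The deposited file also gives a detection p-value for each intensity. For its background setting, the sources used here name none. A second table that the authors deposited holds log2 values for 12421 probes, which differed by at most 4.97e-14 from the log2 intensities after quantile normalization over all probes. Following the methods, log2 intensities were quantile normalized over all probes, and the 13545 probes with a detection p of 0.01 or less on at least 1 array were fitted by lmFit and eBayes of limma 3.58.1 under R 4.3.3 (Benjamini-Hochberg, adjusted p under 0.01). The fit was first run on simulated log2 signals with Gaussian noise and known shifts. That run did not cover background, the detection filter or a deviating array, and its outcome is not given here.

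Gene names came from the platform annotation, which covered 11180 probes with 1 symbol, updated through RefSeq gene tables. A gene had the value of its brightest tested probe, and was called where at least 1 probe passed and none passed the other way. For a probe detected on no untreated array, the fold is bounded by the lowest detected signal of each untreated array. The genes named were the 10 chemokines, the 3 closest profiles of each that rose, and members of the lists described. These members and lists were chosen with earlier results of these data known. Bead arrays give no read depth, and their number limits the precision.

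Alternatives were background correction by normexp (offset 50) or neqc (offset 16), centring on the 75th percentile, cyclic loess, the authors' value table, no filter or detection on all arrays, array weights, trended and robust eBayes, the replicate number as a block, an adjusted p under 0.05, the mean of a gene's probes, and each array left out in turn. Those for the Cxcl10 and Ccl2 difference were added after seeing the data. Same-numbered arrays did not deviate together from their group means (r of -0.19, 0.04 and -0.03), so the numbers were not used as pairs.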

Additional observations from a re-analysis of the deposited data

How the results depend on the processing

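The count of 3 higher chemokines held under most alternatives and that of 0 lower chemokines under every alternative run, and no fold change of a chemokine changed sign. The count was 5 with array weights, where Ccl2 and Ccl7 passed, and 2 to 5 when each array was left out in turn, with 5 without IFNγ replicate 3 and 2 without untreated replicate 3, where Cx3cl1 missed the threshold. It was 4 with trended and robust eBayes (Ccl2 adjusted p = 0.0091) and at an adjusted p under 0.05. It was 2 with centring on the 75th percentile, where Cx3cl1 had a log2 fold change of 0.82 and an adjusted p of 0.0208, and 2 with detection required on all arrays, where Cxcl9 was not tested. Over all probes, 141 were higher, against 78 with centring on the 75th percentile, 74 with detection on all arrays, 248 with array weights and 85 to 171 when each array was left out (90 without untreated replicate 1, 85 without untreated replicate 3). With the replicate number as a block, 3 chemokines and 145 probes were higher, and the block changed no call of a chemokine. The Cxcl10 and Ccl2 difference ran from 1.85 to 2.15 when each array was left out, and from 1.98 to 2.07 under the other alternatives, which were added after seeing the data. Leaving out an array leaves 2 in its group. Signals of Ccl5, Cxcl12, Ccl7 and untreated Cxcl9 lay near background, as did Ccl2 in untreated replicates 2 and 3. Cxcl9 had a fitted log2 fold change of 1.92 with neqc and 1.02 with normexp. The values were 0.93 and 0.55 for Ccl2, and 0.82 and 0.42 for Ccl7. The causes of these shifts were not tested.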
